A study of Rattus norvegicus with 28 samples.

Results

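The genes described here are 45 listed cell cycle and proliferation genes, measured in the endothelium of normal and transplanted rat hearts and in leukocytes from rejecting grafts. They were chosen by symbol from a list of cell cycle regulators, replication genes and mitotic genes, with earlier results of these data known. Of the 45, 44 had a probe set that matched a single gene, among 14217 genes measured, and Rrm2, which encodes the small subunit of ribonucleotide reductase, was not measured under the matching used here. They fall into 5 G1 cyclins, 10 measured S phase genes and 29 genes of G2 and mitosis. Male rats gave all samples. Endothelial cells came from normal hearts of DA (Dark Agouti) rats, from normal hearts of Lewis rats, from allografts (DA hearts in Lewis recipients) and from isografts (Lewis hearts in Lewis recipients) on days 2, 3 and 4 after grafting, with 3 arrays in each of 8 groups. Leukocytes came from allografts on day 2 (1 array), day 3 (2 arrays) and day 4 (1 array), and their label gives the strain as Lewis. The endothelial cells were bead-enriched through CD31 after cells carrying CD45 had been removed, and no age is given for the animals in the labels. The question was whether transcripts of dividing cells rose in grafted hearts, and whether they were higher in the endothelium or in the leukocytes.

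Cells enter division through D cyclins, which with their kinases inactivate the retinoblastoma protein and free E2F factors. E2F factors then switch on cyclin E and the genes of DNA replication, and a later programme of G2 and mitosis genes, controlled through the DREAM and MMB complexes, builds the spindle and separates the chromosomes. Adult cardiac endothelium divides rarely, while activated T cells and some tissue macrophages divide during rejection. The level of a mitotic transcript in a bulk sample therefore reads the share of cells in late cell cycle, whichever cell type they belong to. Fewer dividing cells and less RNA per dividing cell cannot be told apart on these arrays.

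The promoters of the members, which RefSeq gives for 35 of the 44, were searched for motifs of both programmes. The 250 bases before the start were searched on both strands for the CHR element TTTGAA, which MMB and DREAM bind, for the CCAAT box (CCAAT), bound by NF-Y, and for E2F sites. The E2F spellings were TTTGGCG with its variant form TTTGCCG, next TTTCGCG with its variant form TTTCCCG. A promoter was counted once for each motif, and matches of different motifs or strands were allowed to overlap. Of the 24 mitosis promoters, 12 (50%) held a CHR element, 18 (75.0%) a CCAAT box and 2 (8.33%) an E2F site. Of the 9 S phase promoters, 1 (11.1%) held a CHR element, 6 (66.7%) a CCAAT box and 5 (55.6%) an E2F site. Of the 2 G1 cyclin promoters, that of Ccnd3 held a CCAAT box and that of Ccne1 none of the motifs. Among all 33469 rat promoters of the same length the shares were 16.2%, 34.0% and 5.58%. Matches are letters in a window and do not show binding. The upstream stretches of 4 members are shown because their transcripts are described by array below. They are Mki67 and Cdk1 for the mitotic programme, neither of them called, Mcm5 for S phase and Ccnd3 for the D cyclins. The stretches are RefSeq sequences of build GRCr8, 5′ to 3′ along the gene, with the matched motifs in capitals.
Mki67 (chr1:199952594-199952843, minus strand): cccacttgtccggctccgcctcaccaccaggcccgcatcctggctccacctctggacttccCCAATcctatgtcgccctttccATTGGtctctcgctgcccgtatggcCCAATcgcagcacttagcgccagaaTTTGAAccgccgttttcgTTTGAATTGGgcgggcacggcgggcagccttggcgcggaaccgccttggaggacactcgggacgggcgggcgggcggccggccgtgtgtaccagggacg
Cdk1 (chr20:19265043-19265292, plus strand): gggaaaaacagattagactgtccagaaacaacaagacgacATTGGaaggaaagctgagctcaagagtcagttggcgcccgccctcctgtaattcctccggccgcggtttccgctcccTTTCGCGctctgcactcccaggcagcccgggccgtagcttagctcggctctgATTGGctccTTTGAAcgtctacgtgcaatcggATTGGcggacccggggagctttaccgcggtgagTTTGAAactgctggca
Mcm5 (chr19:13488563-13488812, plus strand): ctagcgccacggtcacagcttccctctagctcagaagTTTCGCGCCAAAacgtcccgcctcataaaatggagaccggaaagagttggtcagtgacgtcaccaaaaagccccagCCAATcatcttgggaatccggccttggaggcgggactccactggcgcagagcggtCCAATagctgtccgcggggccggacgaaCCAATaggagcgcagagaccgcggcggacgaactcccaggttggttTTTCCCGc
Ccnd3 (chr9:20897876-20898125, minus strand): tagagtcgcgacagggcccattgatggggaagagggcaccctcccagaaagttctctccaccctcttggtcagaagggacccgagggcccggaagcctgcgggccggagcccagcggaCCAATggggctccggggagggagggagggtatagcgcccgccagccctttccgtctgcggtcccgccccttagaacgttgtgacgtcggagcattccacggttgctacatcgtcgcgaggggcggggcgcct
The Mki67 stretch held 2 CHR elements, of which the one nearer the start runs directly into a reversed CCAAT box. Cdk1 held 2 CHR elements and was 1 of the 2 mitosis promoters with an E2F site. Mcm5 held 3 E2F matches, a pair of them overlapping on opposite strands, and no CHR element. Ccnd3 held 1 CCAAT box and neither of the other motifs.

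All values are log2 signals, so a difference of 1 is a 2-fold difference, and levels are compared between samples for the same gene and not between genes. The 24 endothelial arrays had medians of 6.51 to 6.59 and correlated at r = 0.965 to 0.995 within groups over all genes. Their endothelial markers were high throughout: the mean of 15 endothelial genes lay between 11.83 and 12.31 on every endothelial array. Leukocyte transcripts were nonetheless present in grafts despite the CD45 depletion. The mean of 15 pan-leukocyte genes was 7.02 to 7.48 in normal hearts, 7.57 to 8.56 in isografts and 8.33 to 9.12 in allografts. The mean of 16 macrophage genes was 5.77 to 6.06, 7.11 to 9.44 and 8.05 to 9.75 in the same order, and the mean of 11 fibroblast genes reached 10.65 and 10.99 in single allografts of days 2 and 4, against 6.99 to 7.92 in normal hearts. Their part in the cell cycle results was not tested beyond the values given beside them.

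The widest differences in mitotic transcripts lay between normal hearts of the same strain, and this sets the scale for every comparison with grafts. Mki67, which encodes the proliferation antigen Ki-67, measured 9.98, 7.93 and 7.32 in DA normal replicates 1, 2 and 3. In Lewis normal hearts Mki67 measured 9.0, 8.40 and 7.38. The highest and lowest DA hearts thus differed in Mki67 more than any graft group differed from its control. In both strains the lowest normal heart was below every graft array except allograft day 3 replicate 3, at 7.15. Cdk1, the kinase that drives entry into mitosis, followed the same order with 9.82, 8.14 and 7.46 in DA and 8.87, 8.43 and 7.54 in Lewis hearts. Top2a, the topoisomerase that untangles chromosomes, measured 8.83, 7.32 and 7.03 in DA hearts. In Lewis hearts Top2a measured 8.27, 7.80 and 6.77.

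The spread was shared across the whole mitotic set. DA normal replicate 1 was the highest of its group for 29 of 29 mitosis genes and replicate 3 the lowest for 29 of 29, whereas over all genes those replicates were highest or lowest in 30.4% and 32.7%. Lewis normal replicate 1 was likewise the highest for 29 of 29, against 42.1% of all genes. S phase genes showed it in 9 of 10 members for replicate 1 of both strains. The median SD (n = 3) of the mitosis genes was 0.92 in DA normal hearts, against 0.13 over all genes, and 0.63 against 0.18 in Lewis normal hearts. For S phase genes it was 0.42 and 0.30. The leukocyte marker Ptprc, which encodes CD45, measured 5.43, 5.44 and 5.41 in DA and 5.40, 5.29 and 5.68 in Lewis hearts. These signals lay below the array medians of 6.51 to 6.59, near the lower end of the scale. Ptprc could therefore hardly show small differences in leukocytes between normal hearts, although it was higher in every allograft array. In DA hearts the mean of the pan-leukocyte genes ran in the order of the mitosis genes, over a smaller range. It was 7.18, 7.06 and 7.02, where the mean of the mitosis genes was 8.36, 7.10 and 6.67. In Lewis hearts the pan-leukocyte mean spanned 7.16 to 7.48 and the mitosis mean 6.70 to 7.74. Ptprc was highest there in replicate 3, which was the lowest heart for 23 of 29 mitosis genes. The part of leukocytes in the spread between normal hearts was not tested.

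**Figure D1:**
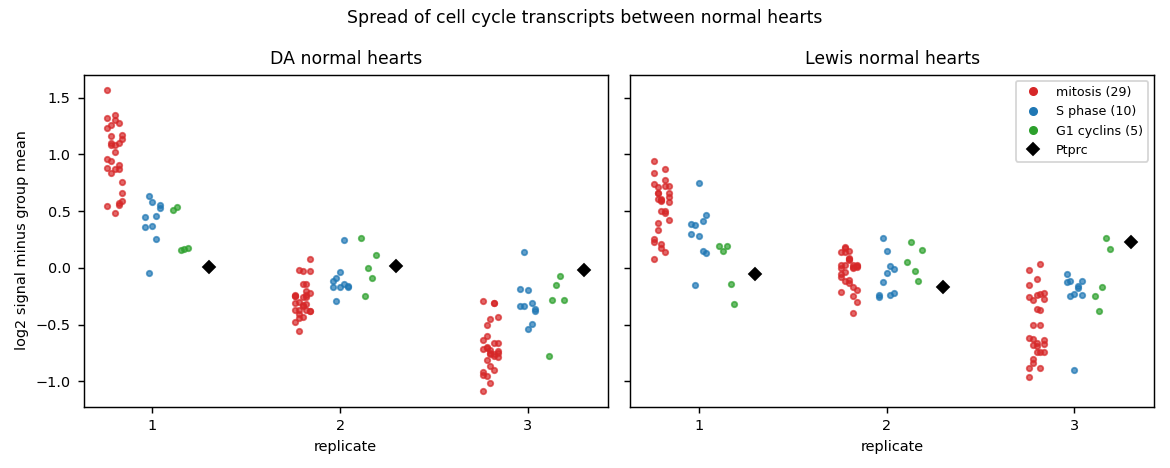
Each point is a cell cycle gene in 1 normal heart, as its log2 signal minus the mean of the 3 normal hearts of its strain, with mitosis genes in red, S phase genes in blue, G1 cyclins in green and Ptprc as a black diamond. Replicate 1 lies above the other hearts for all 29 mitosis genes in DA and in Lewis hearts. Ptprc, near the lower end of the scale, spans 5.41 to 5.44 in DA and 5.29 to 5.68 in Lewis hearts before centring.

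Such joint shifts were also seen within graft groups, at a smaller size. Allograft day 4 replicate 2 was the highest of its group for 29 of 29 mitosis genes, isograft day 4 replicate 1 for 29 of 29, and allograft day 2 replicate 2 was the lowest for 29 of 29. The median SD of the mitosis genes was 0.43, 0.32 and 0.44 in allografts on days 2, 3 and 4 and 0.27, 0.18 and 0.23 in isografts, so normal hearts varied more than any graft group. Allograft day 4 replicate 2 was also the array with the fibroblast mean of 10.99.

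**Figure D2:**
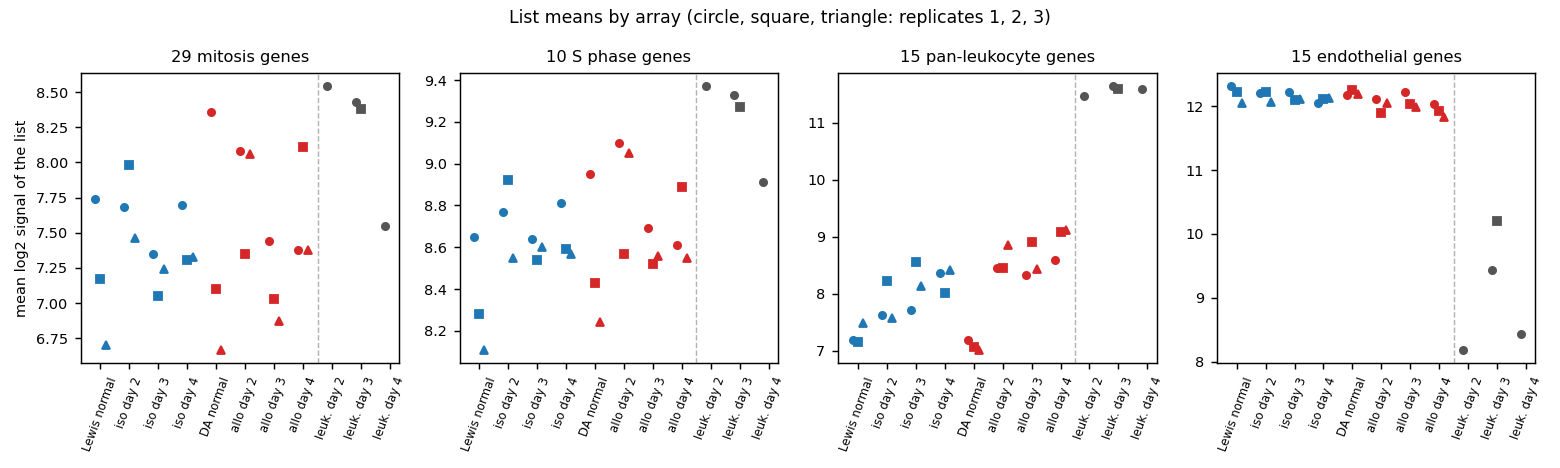
Mean log2 signal of the 29 mitosis genes, 10 S phase genes, 15 pan-leukocyte genes and 15 endothelial genes on each array, with isograft groups in blue, allograft groups in red and leukocytes in grey, the last after removal of the median shift of 0.325. The mitosis mean of DA normal hearts spans 6.67 to 8.36 and covers every graft array, whereas the pan-leukocyte mean of every graft array lies above every normal heart.

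Called members were few in every comparison of grafts with normal hearts of their strain. In isografts 0 of 44 were called higher and 0 lower on days 2, 3 and 4. Over all genes 1.06%, 1.8% and 2.61% were higher on those days and 0.422%, 0.732% and 0.556% lower, or 1.48%, 2.53% and 3.17% in either direction. In allografts 4, 0 and 0 members were called higher and 1, 1 and 1 lower. Over all genes 3.53%, 1.55% and 7.19% were higher and 2.45%, 0.724% and 4.26% lower, or 5.98%, 2.28% and 11.4% in either direction. The calls were Ccne1, Mcm5, Rrm1 and Tk1, higher on day 2, and Ccnd3, lower on each day.

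The arrays of grafts and normal hearts overlapped for most members. In isografts 8, 2 and 5 of 44 members were higher in every graft than in every Lewis normal heart on days 2, 3 and 4, against 9.87%, 12.2% and 12.9% of all genes. The members lower in every isograft numbered 2, 3 and 1, against 7.59%, 8.89% and 7.55%. In allografts 2, 0 and 0 members were higher in every graft than in every DA normal heart, against 12.2%, 10.4% and 14% of all genes. There 2, 2 and 2 were lower, against 10.4%, 7.93% and 11.4%, and Ccnd3 was among them on all 3 days.

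Among the D cyclins, Ccnd3 fell in allografts on all 3 days. Ccnd3, which partners CDK4 and CDK6, measured 10.78, 10.62 and 10.47 in DA normal hearts and 10.12, 9.74 and 10.20 in allografts on day 2. It measured 10.07, 9.84 and 10.02 on day 3 and 9.87, 10.06 and 9.95 on day 4. Every allograft was below every DA normal heart. The differences were -0.60, -0.65 and -0.66 (SE 0.16, n = 3 against 3; limma adjusted p = 0.0309, 0.039 and 0.0106), or 1.52-, 1.57- and 1.59-fold. In Lewis normal hearts Ccnd3 was 10.60, 10.38 and 10.24, and in isografts the differences were -0.36, -0.61 and -0.33, none of which passed (limma adjusted p = 0.459, 0.0536 and 0.376). The call in allografts was lost without DA normal replicate 1 on every day (-0.52, -0.57 and -0.59), without any single array of the comparison on day 3, and without DA normal replicate 2 or allograft replicate 2 on day 2, while the difference stayed between -0.74 and -0.46.

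Ccnd1, the D cyclin induced by growth factor signalling, had the largest differences of all members in every graft group but allografts of day 4, yet they did not pass the test. Ccnd1 measured 11.86, 11.72 and 11.42 in Lewis normal hearts and 10.80, 10.05 and 10.46 in isografts on day 2. It measured 10.69, 9.81 and 9.49 on day 3 and 10.93, 9.64 and 10.27 on day 4, so every isograft was below every Lewis normal heart. The differences were -1.23, -1.67 and -1.39 (SE 0.49; limma adjusted p = 0.353, 0.0884 and 0.171). In DA normal hearts Ccnd1 was 11.79, 11.55 and 10.51, against 10.70, 9.28 and 9.10 in allografts on day 2. Allografts measured 10.45, 9.82 and 8.81 on day 3 and 10.01, 10.36 and 11.59 on day 4. The differences were -1.58, -1.58 and -0.62 (limma adjusted p = 0.063, 0.119 and 0.517), and the arrays overlapped on days 2 and 4. The other 2 probe sets of Ccnd1 gave -1.34 and -1.39 in allografts on day 2.

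Of the remaining G1 cyclins, Ccne1 was called once and the others in no graft group. Ccnd2 measured 9.21, 8.43 and 8.39 in DA normal hearts and 8.43, 9.46 and 9.59 in allografts on day 4, with differences of 0.23, 0.07 and 0.48 on days 2, 3 and 4. In isografts the differences of Ccnd2 were 0.49, -0.01 and 0.08, none called. Ccne1, the cyclin E that starts replication, rose in allografts on day 2, with 6.76, 7.12 and 7.07 against 6.51, 6.26 and 6.27 in DA normal hearts. It has 1 probe set, and its normal values lay near the lower end of the scale, none above the array medians of 6.51 to 6.59. The arrays did not overlap, and the difference was 0.64 (SE 0.18, limma adjusted p = 0.0333). On days 3 and 4 Ccne1 differed by -0.04 and 0.36, and in isografts by 0.32, 0.11 and 0.08, without passing. Ccne2, which was near the lower end of the scale at 6.27 to 6.72 in DA normal hearts, differed by -0.27, -0.34 and -0.33 in allografts and by -0.16, -0.41 and -0.39 in isografts, and its 2 probe sets went opposite ways in allografts on day 2 (-0.27 and 0.30).

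S phase genes rose in part in allografts on day 2. Of the 10 measured, 3 were called higher and none lower. Mcm5, a subunit of the replicative helicase, measured 8.48, 8.09 and 8.66 in allografts on day 2 against 8.13, 7.53 and 7.37 in DA normal hearts. The difference of Mcm5 was 0.74 (SE 0.18, limma adjusted p = 0.0195), although allograft replicate 2 lay below DA normal replicate 1. Tk1, the thymidine kinase of the salvage pathway, measured 8.26, 7.99 and 8.11 against 7.91, 7.23 and 7.02. No Tk1 value overlapped, and the difference was 0.74 (SE 0.20, limma adjusted p = 0.0313); its other 2 probe sets gave 1.2 and 0.21. Rrm1, the large subunit of ribonucleotide reductase, measured 9.03, 8.72 and 9.16 against 8.80, 8.26 and 8.23. The Rrm1 difference was 0.54 (SE 0.16, limma adjusted p = 0.044), with 1 allograft below the highest normal heart. None of the 4 higher calls, Ccne1 included, was kept without DA normal replicate 2, without DA normal replicate 3 or without allograft replicate 3, while the differences stayed between 0.57 and 0.75 for Ccne1, 0.58 and 0.96 for Mcm5, 0.43 and 0.72 for Rrm1 and 0.55 and 1.0 for Tk1. Without allograft replicate 1 only that of Ccne1 was left, and without replicate 2 that of Ccne1 was lost.

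The other S phase genes did not pass. The differences in allografts on day 2 were 0.73 for Mcm3, 0.53 for Mcm4, 0.35 for Mcm2 and for Mcm6, and 0.19 for Mcm7, all helicase subunits. Mcm2 measured 9.13, 8.44 and 9.33 against 9.07, 8.51 and 8.29 in DA normal hearts, so the groups overlapped. Pcna, the sliding clamp of the polymerase, stood apart from the helicase genes, with 12.71, 12.91 and 12.68 against 12.96, 12.92 and 13.15. All 3 allografts were below the normal hearts, but the difference of -0.25 did not pass (limma adjusted p = 0.571). Tyms, which makes thymidylate, differed by -0.20.

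By day 3 the S phase median in allografts had come down from 0.44 to 0.10, and on day 4 it was 0.22. No S phase gene was called on those days. On day 4 the differences of largest size were 0.66 for Mcm3, -0.60 for Tyms and 0.59 for Tk1 (limma adjusted p = 0.0771, 0.198 and 0.0626), with Tk1 at 7.79, 8.34 and 7.79 on day 4. In isografts the S phase medians were 0.43, 0.19 and 0.33, without a call. At an unadjusted p under 0.05, 11, 0 and 2 members were higher in isografts on days 2, 3 and 4, against 5.89%, 6.8% and 8.95% of all genes, and 2, 2 and 1 lower, against 4.13%, 5.39% and 5.1%. In allografts 11, 0 and 4 were higher at that level, against 10.3%, 5.92% and 13.8%, and 2, 2 and 2 lower, against 8.52%, 4.86% and 9.65%. In isografts on day 2 Mcm3, Mcm5, Rrm1 and Tk1, with the mitosis genes Bub1b, Plk1, Nuf2 and Mad2l1, made up the 8 that were higher in every graft than in every Lewis normal heart. Tk1 measured 8.09, 8.24 and 7.82 in these isografts and 7.61, 7.47 and 7.37 in Lewis normal hearts, a difference of 0.56 (SE 0.20, limma adjusted p = 0.247). Between Lewis normal hearts and isografts of day 2 the arrays of the same replicate number deviated together over all genes (r = 0.29 to 0.41). Among the 29 mitosis genes replicate 3 was lowest for 23 in Lewis normal hearts and for 26 in these isografts. The highest was replicate 1 for 29 in Lewis normal hearts but replicate 2 for 25 in these isografts. With the number as a block in these 6 arrays alone, a fit with 2 residual degrees of freedom chosen after the values were seen, 4 members were called higher and 1 lower, against 2.8% and 1.22% of all genes. They were Mcm3 at 0.79, Tk1 at 0.56, Ccna2 at 1.14 and Nuf2 at 0.76 (limma adjusted p = 0.0176, 0.0463, 0.0387 and 0.0189), and Ccnd1 at -1.23 (adjusted p = 0.0042).

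**Figure D3:**
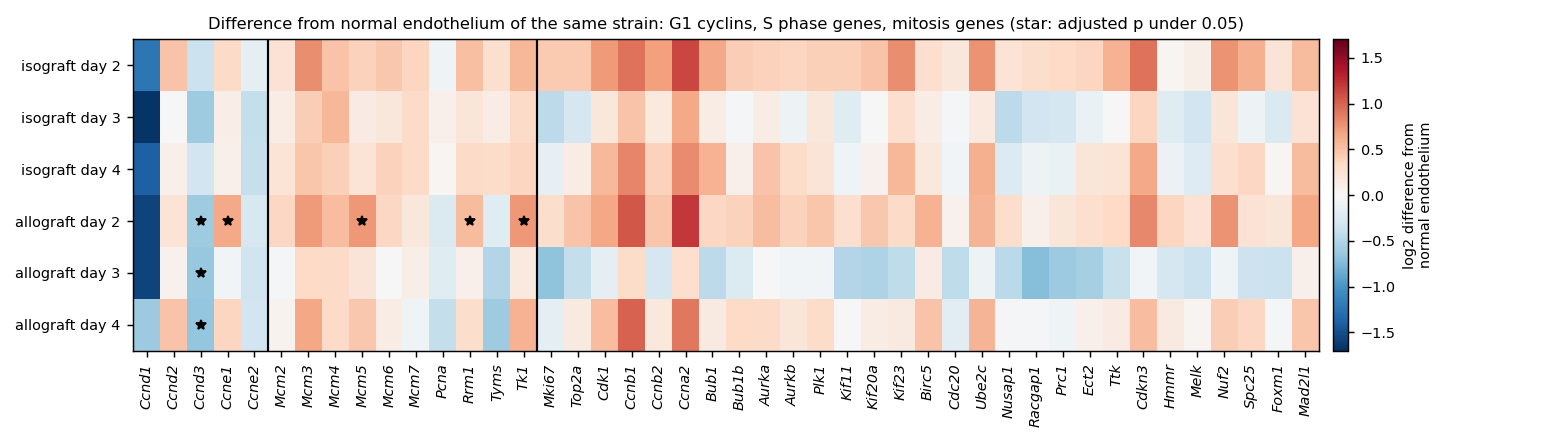
Difference in mean log2 signal from the normal endothelium of the same strain for the 44 members (columns, in the order G1 cyclins, S phase genes and mitosis genes) in the 6 graft groups (rows), red where the graft is higher and blue where it is lower, with a star at the 7 calls. Ccnd1 is blue in every row, most mitosis genes are red on day 2 in both graft types, and no mitosis gene has a star.

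No mitosis gene was called in any comparison in the fit over all 24 arrays. On day 2 the differences were above 0 for 29 of 29 mitosis genes in both graft types, with medians of 0.44 in isografts and 0.39 in allografts against -0.01 and 0.03 over all genes. On day 3 the medians were 0.01 and -0.35, with 15 and 4 of 29 above 0, and on day 4 they were 0.22 and 0.15, with 21 and 22 above 0. The differences within a graft type share the same 3 normal hearts, so that a high or low control moves all mitosis genes together.

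Ccna2 and Ccnb1 had the largest differences of the mitosis set in allografts on days 2 and 4. Ccnb1, cyclin B1, measured 8.27, 7.58 and 8.32 in allografts on day 2 against 8.27, 6.62 and 6.09 in DA normal hearts. Its difference was 1.06 with an SE of 0.42 (limma adjusted p = 0.16), and DA normal replicate 1 lay within the range of the grafts. Ccnb1 measured 7.76, 7.36 and 6.79 on day 3 and 7.70, 8.53 and 7.76 on day 4, differences of 0.31 and 1.0. In isografts Ccnb1 measured 7.77, 7.97 and 7.51 on day 2 against 7.60, 6.43 and 6.46 in Lewis normal hearts, a difference of 0.92 (limma adjusted p = 0.456). Ccna2, cyclin A2, differed by 1.2 in allografts and 1.14 in isografts on day 2, whereas Ccnb2, cyclin B2, differed by 0.47 and 0.70.

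Mki67 itself was not called in any graft group. It measured 9.35, 8.05 and 8.71 in allografts on day 2, 8.44, 7.55 and 7.15 on day 3 and 8.05, 8.66 and 7.99 on day 4. The Mki67 differences were 0.30, -0.69 and -0.17 (SE 0.51), and the 95% interval on day 4 ran from -1.25 to 0.90. Isografts measured 8.60, 9.15 and 8.35 on day 2, 8.08, 7.52 and 7.82 on day 3 and 8.36, 8.04 and 7.95 on day 4, differences of 0.44, -0.45 and -0.14. All 18 graft arrays lay within the range of the 3 DA normal hearts except allograft day 3 replicate 3, at 7.15.

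Cdk1 and Top2a ran with Mki67 on most arrays. Cdk1 measured 9.45, 8.56 and 9.37 in allografts on day 2, 8.66, 8.19 and 8.07 on day 3 and 8.55, 9.64 and 8.80 on day 4. In isografts Cdk1 was 8.99, 9.18 and 8.83, then 8.64, 8.28 and 8.51, then 9.14, 8.69 and 8.65. The Cdk1 differences were 0.66, -0.16 and 0.53 in allografts and 0.72, 0.19 and 0.55 in isografts (SE 0.43), none called. Top2a differed by 0.48, -0.40 and 0.15 in allografts and by 0.44, -0.28 and 0.12 in isografts. At the other end of the set were Cdc20, the activator of the anaphase-promoting complex, with 0.07 in allografts on day 2 and -0.19 on day 4, and Racgap1, which acts in cytokinesis, with 0.09 and then -0.72 on day 3.

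**Figure D4:**
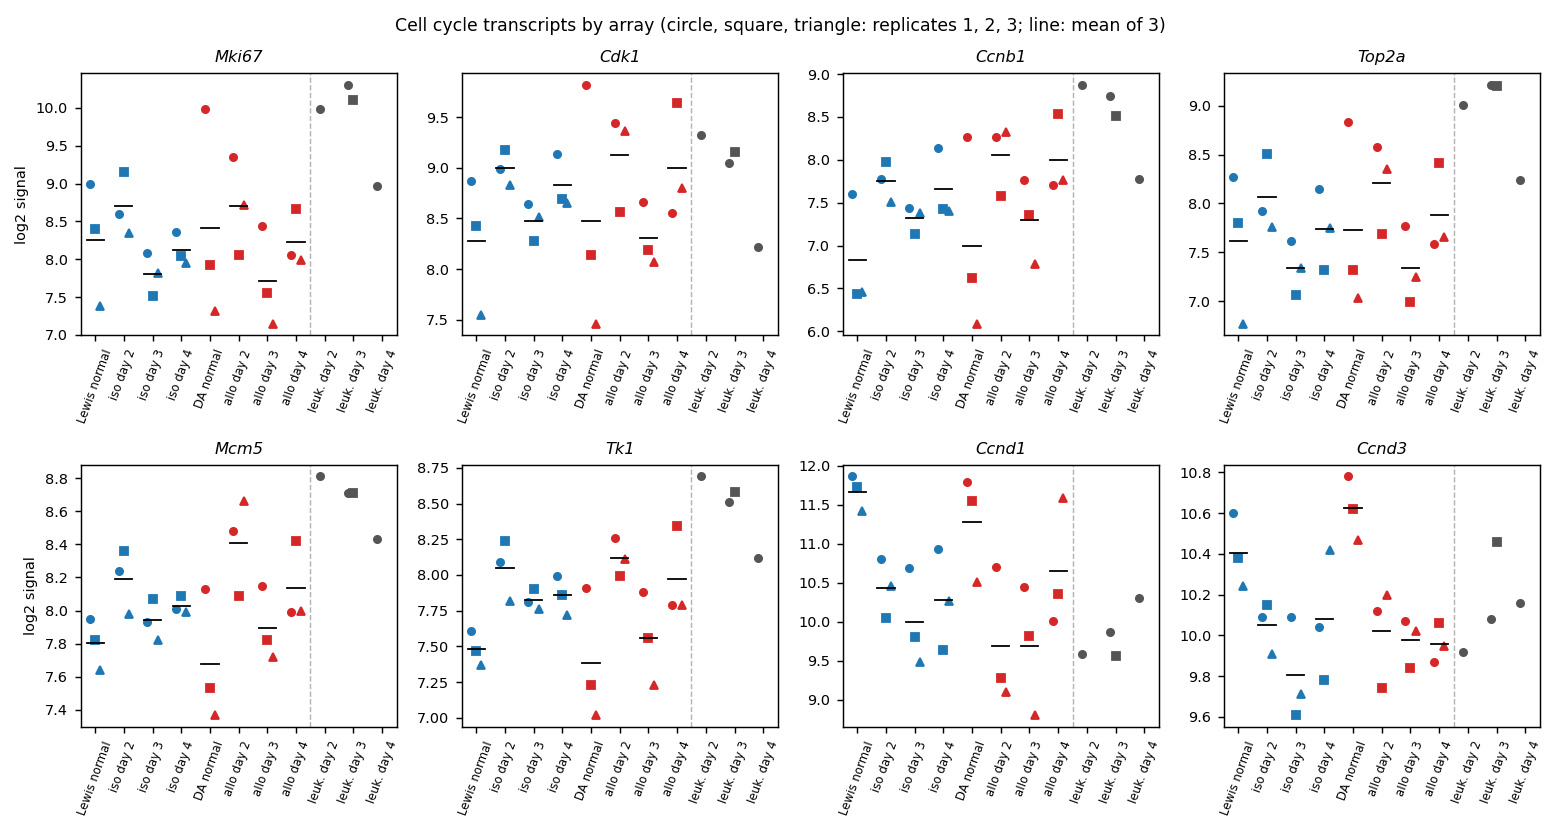
Log2 signal of 8 members on each array, with symbols for replicates, a line for the mean of 3 arrays, isograft groups in blue, allograft groups in red and leukocytes in grey to the right of the dashed line, after removal of the shift of 0.325. DA normal replicate 1 lies above the mean of the day 2 allografts for Mki67, Cdk1, Ccnb1 and Top2a, whereas Ccnd3 lies lower in every allograft than in every DA normal heart.

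Of the arrays left out one at a time, DA normal replicate 1 moved the count of calls in allografts most on days 2 and 4. This array was the highest of its group for 43 of 44 members, so leaving it out raises their differences by construction. The calls of that fit show how far the results depend on this array and are no separate test of a rise. Without DA normal replicate 1, 14 of 44 members were called higher in allografts on day 2 (1 G1 cyclin, 4 S phase genes and 9 mitosis genes) against 3.08% of all genes, and 8 on day 4 (3 S phase and 5 mitosis genes) against 5.52%. On day 3 there were 0. The mitosis median became 0.89, 0.16 and 0.69 on the 3 days. Nuf2, a kinetochore protein, gave 1.25 (SE 0.21, limma adjusted p = 0.00124) on day 2 in that fit, Ccnb1 1.7 (SE 0.36, adjusted p = 0.00767) and Cdk1 1.33 (SE 0.36, adjusted p = 0.0344). The other mitosis genes called on day 2 were Ccna2, Plk1, Kif11, Kif20a, Cdkn3 and Mad2l1, which act in entry into mitosis, on the spindle or at its checkpoint. Mki67 was not among them, at 1.08 (SE 0.43, adjusted p = 0.18). Leaving out replicate 1 of both strains, a choice made after the values were seen, gave 16, 0 and 11 higher calls in allografts, against 2.97%, 1.09% and 5.35% of all genes, and 3, 0 and 1 in isografts, against 0.696%, 0.957% and 1.67%. No label sets DA normal replicate 1 apart from the other normal hearts.

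Allografts and isografts did not differ in the members beyond their spread. In the difference of both changes 0 of 44 were called on days 2, 3 and 4, against 0%, 0% and 0.00703% of all genes, and 1 member had an unadjusted p under 0.05 on any day. That was Tyms on day 4, at -0.91 (SE 0.40, limma adjusted p = 0.845). The mitosis medians of this difference were -0.03, -0.26 and 0.00. The interval for Mki67 on day 2 ran from -1.67 to 1.37, wide enough to hold more than a 2-fold difference either way.

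Between day 2 and day 4 no member was called in either graft type, against 0.38% of all genes in allografts and 0.0352% in isografts, all of them higher on day 4, and none reached an unadjusted p of 0.05. The mitosis medians were -0.20 in allografts and -0.25 in isografts, with 1 and 2 of 29 above 0. DA and Lewis normal hearts differed in 0 of 44 members, against 0.485% of all genes higher and 0.528% lower in DA, or 1.01% in all, and 1 had an unadjusted p under 0.05, Ccnd2 at -0.59 (limma adjusted p = 0.553). The mitosis median of DA minus Lewis was 0.17.

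Outside the members, cell cycle regulators with larger changes were Myc and Mycn. Among 21 E2F factors, Myc genes and cyclin-dependent kinases, 1, 1 and 2 rose in isografts on days 2, 3 and 4, against 1.06%, 1.8% and 2.61% of all genes. Allografts had 2, 0 and 2 higher, against 3.53%, 1.55% and 7.19%, and 1, 1 and 2 lower, against 2.45%, 0.724% and 4.26%. Myc, the growth-promoting transcription factor, measured 8.77, 9.02 and 7.91 in Lewis normal hearts against 10.16, 11.34 and 10.08 in isografts on day 2. All isografts were above all normal hearts, and Myc rose by 1.96, 2.04 and 1.80 (SE 0.35, limma adjusted p = 0.00475, 0.00239 and 0.00503). In allografts Myc rose by 1.91 on day 2 and 1.42 on day 4 (adjusted p = 0.00213 and 0.012), and the 1.27 of day 3 did not pass (adjusted p = 0.0714).

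Mycn, a relative of Myc, went the other way in allografts. It measured 10.10, 9.15 and 9.93 in DA normal hearts, 7.48, 7.83 and 6.39 in allografts on day 2 and 6.86, 7.81 and 6.86 on day 4. Mycn differed by -2.49 and -2.55 on those days, below every DA normal heart (SE 0.37, limma adjusted p = 0.000303 and 0.000135). The -1.31 of day 3 and the -1.17, -0.48 and -0.61 of isografts did not pass, and the difference of both changes was not called on any day. Cks1b, a subunit of cyclin-dependent kinase complexes, rose by 0.89 and 0.81 in allografts on days 2 and 4 and by 0.98 in isografts on day 4. E2f7, a repressor of the E2F family, fell by 0.84 in allografts on day 3, and Tfdp2, a partner of E2F factors, fell by 0.85 on day 4.

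Among 21 inhibitors and checkpoint genes there were no calls on days 2 and 3 in either graft type. On day 4 Ccng1, a p53 target, rose by 0.70 in isografts, the only call there, and by 0.62 in allografts, where Ccng2 fell by 0.66 and Cdkn1b, which encodes the inhibitor p27, fell by 0.52. Of 29 further replication genes, Gins1, part of the helicase complex, rose by 0.94 in allografts on day 2 and no other was called in grafts. Of 36 further mitosis genes, the centromere gene Cenpm rose by 0.44 and 0.41 in allografts on days 2 and 4, and Stmn1, which destabilises microtubules, fell by 0.96 on day 4. Over all genes 3.53% and 7.19% were higher in allografts on days 2 and 4 and 4.26% lower on day 4. In isografts 2.61% were higher on day 4. A single call in lists of this size is therefore no result about the list. Between strains, Cdkn1a, which encodes the inhibitor p21, was lower in DA than in Lewis normal hearts at -2.64 (SE 0.39, limma adjusted p = 0.000898). Cdkn1a has 2 probe sets, and this difference is that of the kept one alone.

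By the median of the mitosis genes, leukocytes from the allografts stood above the allograft endothelium on days 2 and 3 and not on day 4. These arrays had medians of 6.83 to 6.88, against 6.51 to 6.59 on the endothelial ones, and appeared to have been normalized apart. The median difference over all genes, 0.325, was therefore taken off. With 1, 2 and 1 arrays there was no test. Leukocytes minus allograft endothelium gave mitosis medians of 0.62, 1.32 and -0.09 on days 2, 3 and 4 and S phase medians of 0.48, 0.78 and 0.22, against 0.04, -0.01 and -0.02 over all genes. The mean of the mitosis genes was 8.54, 8.41 and 7.55 in leukocytes and 7.83, 7.11 and 7.62 in allograft endothelium. The wider gap of day 3 thus came with a lower endothelial level and not with a higher leukocyte one. Mki67 measured 9.99 in leukocytes on day 2, 10.30 and 10.10 on day 3 and 8.97 on day 4. The allograft endothelium lay between 7.15 and 9.35 over all days, which held the leukocytes of day 4 alone. On day 4 itself the endothelium measured 7.99 to 8.66, below the leukocytes, and the day 4 differences of Mki67, Aurka and Aurkb were 0.74, 0.81 and 0.75. DA normal replicate 1, with Mki67 at 9.98 and Ptprc at 5.43, was as high in Mki67 as the leukocytes of day 2, where Ptprc was 12.03, as far as the removed shift makes both sets comparable.

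By the rule of 2-fold or more with no overlap of arrays, 4 of 44 members were higher in leukocytes and 0 lower, against 8.63% and 8.64% of all genes. The count of 4 was near the share over all genes and is no result about the members as a set. The 4 were Ccnd2, the helicase subunit Mcm3, and the mitotic kinases Aurka and Aurkb. Ccnd2, a D cyclin used by lymphocytes, measured 10.21, 10.64, 11.05 and 10.72 in leukocytes against 8.43 to 9.59 in the allograft endothelium, a difference of 1.72. Aurkb measured 8.78, 8.46, 8.47 and 7.83 against 6.60 to 7.63, a difference of 1.32. Mcm3 differed by 1.05 and Aurka by 1.14. Without the day 4 leukocytes 14 members were higher, against 8.9% of all genes, and without removing the shift 8 were, against 13.7%.

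Within leukocytes the mitotic set was lower on day 4 than on day 2 for 29 of 29 genes, by a median of -1.05 and a range of -1.49 to -0.03, against -0.04 over all genes. S phase genes were lower in 10 of 10, with a median of -0.44. Cdk1 measured 9.33 on day 2, 9.05 and 9.16 on day 3 and 8.22 on day 4, which was below the mean of 9.0 in the allograft endothelium of day 4. Each of these days rests on 1 or 2 arrays, and the mitotic set also moved as a block between replicates of endothelial groups. The lists of 15 pan-leukocyte and 16 macrophage genes had medians of 0.13 and -0.03 between the same days. Those of T cell and B cell genes were 0.45 and 0.31, those of fibroblast and mural genes 1.67 and 0.67, and the part of these shifts in the lower mitotic level was not tested. The leukocyte arrays also held endothelial transcripts, against an endothelial mean of 11.83 or more on endothelial arrays. Their endothelial mean was 8.19 on day 2, 9.44 and 10.21 on day 3 and 8.44 on day 4. The fibroblast, mural and cardiomyocyte means of the leukocyte arrays were highest on day 3 as well.

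Leukocyte transcripts in the endothelial samples rose in both graft types. Ptprc measured 8.21, 7.91 and 8.64 in allografts on day 2, 7.80, 8.91 and 8.35 on day 3 and 8.11, 9.08 and 9.50 on day 4, against 5.41 to 5.44 in DA normal hearts. Pan-leukocyte genes were called higher in 11, 10 and 12 of 15 in allografts and in 1, 4 and 5 in isografts, and macrophage genes in 15, 14 and 16 and in 7, 14 and 15 of 16. T cell genes were called higher in 3, 7 and 14 of 16 in allografts and in 1, 1 and 3 in isografts. Over all genes 3.53%, 1.55% and 7.19% were called higher in allografts and 1.06%, 1.8% and 2.61% in isografts. The pan-leukocyte median was 1.36 on day 2 and 1.84 on day 4 in allografts and 0.29 and 0.89 in isografts, while the mitosis median was 0.39 and 0.15 in allografts and 0.44 and 0.22 in isografts. Of the other cell type lists, fibroblast genes were called higher in 1, 0 and 5 of 11 in allografts and 0, 0 and 4 in isografts, and mural genes in 3 of 9 on day 4 in allografts alone. Cardiomyocyte genes were called lower in 2, 0 and 3 of 9 and in 3, 4 and 3, with 1 higher in allografts on day 3, endothelial genes in 1 higher and 1 lower on day 2 and 1 higher and 3 lower on day 4 of allografts, and no B cell or erythroid gene was called. How much of the cell cycle signal in grafts came from leukocytes was not tested.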

How the data were processed

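RNA of CD31-enriched cardiac endothelium (24 arrays) and of graft leukocytes (4 arrays) was hybridized to Affymetrix rat arrays after biotin labelling, per the labels' protocols. The deposited values were log2 signals per probe set, computed by the authors with RMA and affy, per the submitters' processing notes, which name no version. RMA sets arrays normalized together to a common distribution, which removes a shift shared by all genes. From the values, the leukocyte arrays appeared to have been normalized apart, which the labels do not state.

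Of 31099 probe sets 20826 matched a single gene and 20758 of them an Entrez identifier in RefSeq. The probe set with the highest endothelial mean was kept per gene, which gave 14217 genes. A linear model over the 24 endothelial arrays, with a mean for each group and 16 residual degrees of freedom, was fitted with limma 3.58.1 in R 4.3.3 (version 1.17.8 of data.table). Called means a Benjamini-Hochberg adjusted p, over all genes, below 0.05. The fit was tested on simulated data. The design text speaks of biological replicates without saying whether an array holds RNA of a single animal, so p-values measure only the spread between these arrays. Array signals carry no counting depth, and the number of arrays limits the precision.

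Members were those of the given list. Called members, Mki67, Top2a, Cdk1, Mcm2, Pcna and the D and E cyclins were described by array, with up to 12 called genes of the other lists, and other members as ranges or examples. The members and all lists (cell types: endothelial, pan-leukocyte, T cell, macrophage, B cell, fibroblast, mural, cardiomyocyte and erythroid) were chosen with earlier results of these data known. Alternatives were the median over probe sets, a filter on dim genes (over log2 6 in at least 3 arrays), centring, fits to the groups compared alone, a leukocyte covariate, a replicate block and leaving out each array.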

Additional observations from a re-analysis of the deposited data

How the results depend on the processing

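Calls among the members hung on single arrays, since each group held 3. Counts of called members while leaving out 1 array at a time ran from 0 to 14 higher and 0 to 2 lower in allografts on day 2, 0 to 0 lower on day 3 and 0 to 8 higher and 0 to 1 lower on day 4, and from 0 to 1 lower in isografts on day 3. Isografts on day 2, whose own arrays left out gave 0, had 2 higher without DA normal replicate 1, which enters only the shared spread. Without replicate 1 of both normal groups, an alternative added after the values were seen, the counts were 16 higher and 0 lower, 0 lower, and 11 higher and 0 lower in allografts on days 2, 3 and 4, and 3 and 1 higher in isografts on days 2 and 4. With only the groups compared, allografts on day 2 had 0 higher and 0 lower, and isografts 1 lower on each of days 2, 3 and 4. Isografts on day 3 also had 1 lower with the filter on dim genes and with each array centred. The median over probe sets gave 2 lower in allografts on day 2 and 1 higher on day 4. With the pan-leukocyte mean as a covariate no member was called, and neither were more than 2 of all genes in any allograft comparison with DA normal hearts, so this says little about the members; the difference of Ccne1 on day 2 turned to -0.12.

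The replicate block gave 2 lower in isografts on day 3, 2 lower in allografts on day 2 and 1 higher in allografts on day 4. The numbers did not pair the samples as a whole: of 28 pairs of groups, 4 had all 3 same-number correlations over 0.1, and the 84 correlations ran from -0.35 to 0.58. Of the 4, Lewis normal with isograft day 2 is a comparison tested here; with the replicate block in those 6 arrays alone it gave 4 higher and 1 lower, and with the block over all arrays 0 and 0.

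Leaving out 1 array turned some signs. Mki67 ranged from -0.58 to 0.23 in isografts on day 4 and from -0.25 to 1.08, -1.24 to 0.09 and -0.72 to 0.61 in allografts on days 2, 3 and 4. Cdk1 ranged from -0.18 to 0.49 in isografts and -0.67 to 0.51 in allografts on day 3. Members higher in leukocytes numbered 4 to 14 while leaving out 1 array, and 8 with no median shift. The counts for the difference of changes, for day 4 against day 2 and between strains were 0 in each alternative run.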

Other observations

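2 clock genes, chosen after their values were seen, shared with the mitotic genes that replicate 1 was the highest normal heart. Over all genes replicate 1 was the highest for 30.4% in DA and 42.1% in Lewis hearts. Nr1d1, a repressor in the circadian clock, measured 9.86, 8.75 and 7.89 in DA normal replicates 1, 2 and 3 and 10.08, 8.16 and 7.26 in Lewis normal hearts. Dbp, a clock output factor, measured 8.17, 6.65 and 6.16 in DA and 8.63, 6.0 and 6.15 in Lewis hearts. The lowest Lewis heart was replicate 2 for Dbp and replicate 3 for the mitosis mean. Graft groups went both ways. In isografts on day 4 replicate 1 was highest for 29 of 29 mitosis genes. There Nr1d1 (8.66, 7.91 and 8.81) and Dbp (7.69, 6.67 and 7.75) were highest in replicate 3. In allografts on day 4 replicate 2 was highest for 29 of 29 and for Dbp, but replicate 3 for Nr1d1. In allografts on day 2 replicate 2 was lowest for 29 of 29 and for both clock genes. On day 3 replicate 1 was highest for 26 of 29 in allografts and 17 of 29 in isografts, and for both clock genes in each. In isografts on day 2 replicate 2 was highest for 25 of 29, but replicate 1 for both clock genes. The hour at which hearts were taken is not stated in the labels, and a relation between these genes and the mitotic set was not tested.

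Signals near the lower end of the array scale, as for Ccne1 and Ccne2, give compressed differences. With 3 arrays a group and an SE of 0.51 for Mki67, a 2-fold change of that gene, in 1 direction or the other, lay within the interval of most comparisons with grafts.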
